A study of Mus musculus with 4 samples.

Results

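The pericytes described here were 4644 of 39266 cells in 4 single-cell RNA libraries of mouse digit. They were chosen by counts of unique molecular identifiers (UMIs, each standing for 1 captured transcript). A cell was kept when the UMIs of Rgs5, Kcnj8 and Abcc9 together came to at least 4 and exceeded those of the smooth muscle genes Myh11, Cnn1 and Actg2. It also had to hold no UMI of Ptprc, the pan-leukocyte gene, or Cdh5, the gene of endothelial cadherin, and at most 1 of Pdgfra, a fibroblast receptor gene. Of 50625 barcodes, the 39266 counted as cells had 500 genes and 1000 UMIs or more and no more than 10% of UMIs from mitochondrial genes.

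The animals were wild-type mice of the inbred FVB/NJ strain, 8 weeks old, whose second phalanx (P2) had been amputated through its middle, a level at which the mouse digit does not regenerate. One library came from unamputated digits and one each from digits 12, 17 and 28 days post-amputation (dpa); per the labels, the animals were pooled males and females. Manual dissection was followed by trypsin and collagenase I digestion, lysis of red cells and a sort of living cells by exclusion of propidium iodide. With 1 library a group no test between groups was possible, and intervals below cover counting error only.

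Pericytes are mural cells: they sit on capillaries and small venules inside the basement membrane that they share with the endothelium, and they are recruited to new vessels by platelet-derived growth factor acting on the receptor encoded by Pdgfrb. They regulate vessel tone and permeability, and they grade into the smooth muscle of arterioles and venules, which wraps larger vessels and contracts more strongly. Rgs5 encodes a regulator of G-protein signalling, and Kcnj8 and Abcc9 encode the pore and the sulfonylurea receptor of a potassium channel that senses the energy state of the cell.

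The genes that chose the cells were high in each library. Rgs5 (chr1:169655501-169695813, mm10, plus strand) stood at 11413 CPM (the gene's UMIs scaled to a total of 1000000 over the pericytes of that library) in unamputated, 7158 in 12 dpa, 10986 in 17 dpa and 8526 in 28 dpa pericytes. Kcnj8 (chr6:142564837-142571614) stood at 181, 157, 193 and 150.2 CPM, and its neighbour Abcc9 (chr6:142587862-142702315), on the same minus strand, at 545, 512, 524 and 288 CPM. These values were used by the rule and are a description. The summed UMIs of the 3 genes per cell had medians of 123.5, 57, 65 and 38, so that most cells lay far above the threshold of 4. At the threshold the cells were few: 14, 12, 17 and 20 cells had exactly 4 such UMIs, and 6, 15, 17 and 20 cells that met the other conditions had 3. Cells with 4 to 9 such UMIs numbered 64, 52, 54 and 133 and were poorer in pericyte transcripts than the rest: Higd1b stood at 19.5, 68.5, 18.4 and 180 CPM in them, against 412, 826, 498 and 683 CPM in cells with 20 or more. Dcn, a fibroblast proteoglycan gene, stood at 1576, 131, 4498 and 1584 CPM in those cells of 4 to 9 UMIs, against 64.9, 71.4, 132 and 458 CPM in cells with 20 or more.

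Markers that the rule did not use bore out the label. Of 30 further pericyte markers, 29 reached 20 CPM in at least 1 library, and their summed level was 12137, 11316, 11408 and 9163 CPM in unamputated, 12, 17 and 28 dpa pericytes. In the smooth muscle gate, the nearest class, the same sum was 6344, 2920, 6416 and 5209 CPM. In the endothelial gate (cells with 2 or more UMIs of Cdh5 and none of Ptprc) the same sum was between 1555 and 2225 CPM, in the fibroblast gate (2 or more UMIs of Pdgfra, none of Ptprc or Cdh5, and fewer than 4 of either gene trio) between 1682 and 2652 CPM and in the immune gate (Ptprc and no Cdh5) between 477 and 760 CPM. Pdgfrb was found at 730, 785, 800 and 611 CPM, and Notch3, the mural Notch receptor gene, at 1015, 823, 1100 and 805 CPM. After each cell was thinned to 3000 UMIs, Pdgfrb was seen in 78.5 to 87.2% of pericytes and in 3.39 to 4.93% of immune gate cells. Before thinning the shares were 87.6 to 97.5% and 7.39 to 9.98%. The median log2 ratio of the 29 markers to the unamputated library was -0.21, 0.02 and -0.33 at 12, 17 and 28 dpa. At 28 dpa 10 of them were lower and 2 higher by log2 0.5, against 18.9 and 9.38% of all genes of at least 20 CPM.

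Smooth muscle markers outside the rule, many of which mural cells share, summed to 7512, 7079, 7721 and 8550 CPM in pericytes and to 18338, 8350, 21214 and 21609 CPM in the smooth muscle gate. Transcripts of the non-mural classes were present at lower levels. Endothelial markers summed to 578 to 689 CPM, of which Flt1 alone gave 262 to 313 CPM, and 7 or 8 of the 12 were under 10 CPM. Immune markers summed to 264, 61.4, 182 and 376 CPM, or 0.573, 0.265, 0.489 and 2.04% of their sum in the immune gate. Fibroblast markers summed to 978, 847, 1449 and 2542 CPM in pericytes and to 1014, 930, 1847 and 2628 CPM in the immune gate of the same libraries. Keratinocyte markers summed to 1420, 1377, 859 and 3403 CPM in pericytes, against 1487, 847, 1219 and 2222 CPM in the immune gate. Both sums were highest in the 28 dpa library in pericytes and in immune cells alike, and the part that such transcripts have in the levels of the same genes in pericytes was not tested.

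The pericytes held 16618591, 6255670, 6995309 and 7894462 UMIs in unamputated, 12, 17 and 28 dpa libraries, with medians of 10073.5, 7205, 6118 and 4345 UMIs per cell. Pairs of libraries shared 19 to 87 cell barcodes, of which at most 1 was a pericyte in both. The 12 dpa library stood apart by sex: Xist, the transcript of the inactive X chromosome, was at 540 CPM in its pericytes and at 0.429 CPM or less in the others, and Y-linked genes summed to 0.480 CPM there and to 254 to 356 CPM in the others. Time and sex therefore cannot be told apart for 12 dpa. The median log2 ratio of all genes of at least 20 CPM against the unamputated library was -0.17, -0.06 and -0.15 at 12, 17 and 28 dpa, and list medians below should be read from there.

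Pericytes made up 11.8% of unamputated cells (95% exact binomial interval 11.2 to 12.4) and 10.6% of those at 12 dpa (9.87 to 11.3). At 17 and 28 dpa the shares were 11.9% (11.2 to 12.6) and 12.5% (11.9 to 13.1). Under a stricter cell filter (1000 genes, 2000 UMIs and at most 5% mitochondrial UMIs) the 4 shares were 8.94, 9.12, 11.7 and 9.72%. Set against the endothelial gate, the figures diverged. There were 88.5 pericytes per 100 endothelial gate cells in the unamputated library (82.3 to 95.1) and 97.6 in the 12 dpa library (88.1 to 108). The ratio was 180 for 17 dpa (162 to 200) and 287 for 28 dpa (259 to 318). Pericytes numbered 1412, 735, 1035 and 1462, and the endothelial gate held 1596, 753, 575 and 509 cells. Within the mural cells, pericytes were 89.8% of pericytes plus the smooth muscle gate in unamputated, 90.2% in 12 dpa, 81.0% in 17 dpa and 79.1% in 28 dpa tissue. That split rests on the genes of the rule, whose UMIs per cell differed between libraries as given above, so it is a description and is not compared between libraries. Shares in a dissociated and sorted suspension depend on what the digestion releases, and that part was not tested.

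**Figure D1:**
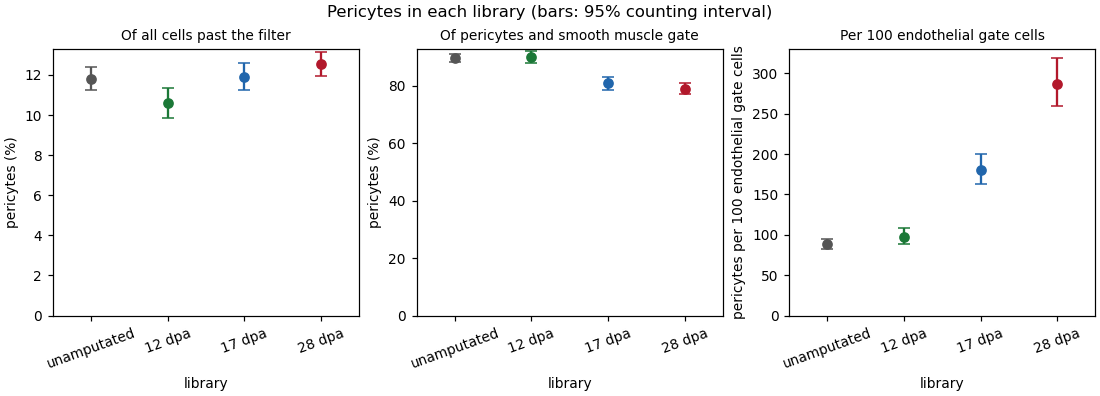
Pericytes in each library as a percentage of all cells past the filter (left), as a percentage of pericytes plus the smooth muscle gate (middle) and per 100 endothelial gate cells (right), with 95% counting intervals. The left panel stays between 10.6 and 12.5%, while the right panel goes from 88.5 in the unamputated library to 287 at 28 dpa.

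Genes that set the pericytes apart from the other gates formed a short list. Cells that fell in no gate were not compared. Of 3162 genes with at least 50 CPM in pericytes of every library, 44 stood above the smooth muscle, endothelial, fibroblast, immune and keratinocyte gates by log2 1 or more in all 4 libraries. The widest margin belonged to Vtn (chr11:78499091-78502324), which encodes vitronectin, an adhesive glycoprotein of plasma and matrix. Vtn was at 75.4, 55.3, 87.6 and 90.4 CPM in pericytes and at no more than 5.04 CPM in any other gate. Adra2a, the alpha-2A adrenoceptor gene, followed with 188, 178, 248 and 227 CPM, against at most 16.4 CPM elsewhere. Sept4, a septin gene, stood at 288, 261, 344 and 272 CPM with at most 37.3 CPM elsewhere, and Lin7a, which encodes a scaffold protein of cell junctions, at 248, 196, 209.7 and 168 CPM with at most 29.0 CPM elsewhere. Steap4, encoding a metalloreductase, Vstm4, Prkar2b, a regulatory subunit of protein kinase A, Art3, Tnfrsf21, Ppfia2, Ndufa4l2, Enpep, which encodes an angiotensin-cleaving aminopeptidase, Phlda1, the eosinophil chemokine gene Ccl11 and Higd1b completed the 15 with the widest margins.

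Smooth muscle was the nearest class, and the contrast with it ran in both directions. Of 3294 genes compared in all 4 libraries, 112 (3.4%) were higher in pericytes by log2 1 or more in every library and 43 (1.31%) were lower. Ifitm1, an interferon-inducible membrane protein gene, was at 178, 165, 400.3 and 332 CPM in pericytes and at 2.80, 5.26, 12.4 and 12.8 CPM in smooth muscle. Cygb, which encodes the oxygen-binding protein cytoglobin, was at 361, 392, 383 and 347 CPM against 18.2 to 31.1 CPM. On the other side, Sfrp1, a secreted Wnt antagonist gene, was at 6.0 to 9.50 CPM in pericytes and at 159.8, 79.8, 116 and 177 CPM in smooth muscle. Kcnma1, the pore of the large-conductance calcium-activated potassium channel, was at 26.8, 20.5, 23.2 and 23.4 CPM against 361, 312, 277 and 173 CPM. The rule separated these 2 classes by counts of other genes, so the contrast is a description. The 12 dpa smooth muscle gate held 80 cells with fibroblast markers at 3657 CPM, more than in the pericytes or in the smooth muscle of the other libraries, whose highest sum was 2581 CPM.

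Pericytes also varied among themselves along the same axis. They were ordered by the share that Myh11, Cnn1 and Actg2 took of the 6 rule genes' UMIs. In the unamputated library 42.6% of pericytes had a share under 5%, 42.4% one of 5 to 20% and 15.01% one of 20 to 50%. The bins rest on the genes of the rule, so their sizes are not compared between libraries. Acta2, encoding smooth muscle actin and not used by the rule, stood at 1569, 4444 and 6844 CPM across the 3 bins in unamputated digits, and 1494, 4061 and 6828 CPM in the 12 dpa library. The bins held 1354, 3360 and 6448 CPM in the 17 dpa library and 1743, 3243 and 6124 CPM in the 28 dpa library, the same order each time. Tagln (transgelin), Tpm2 (beta-tropomyosin) and Pln (phospholamban, which restrains calcium uptake into the sarcoplasmic reticulum) shared it, and Pln went from 1.46 through 12.1 to 121 CPM in the unamputated library.

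Other genes ran the opposite way. Steap4 stood at 464, 220 and 71.7 CPM across the bins in the unamputated library and at 372, 210.04 and 61.7 CPM at 28 dpa. Cox4i2, an alternative subunit of cytochrome oxidase, went from 348 through 259 to 114 CPM and Pdgfrb from 886 through 666 to 483 CPM in the unamputated library, and both kept that order in each of the other 3. Col4a1, encoding a basement membrane collagen chain, went from 3880 through 2861 to 2066 CPM in the unamputated library and from 2245 through 1279 to 543 CPM at 28 dpa. Notch3 kept no such order in the unamputated bins, at 949, 1101 and 941 CPM.

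**Figure D2:**
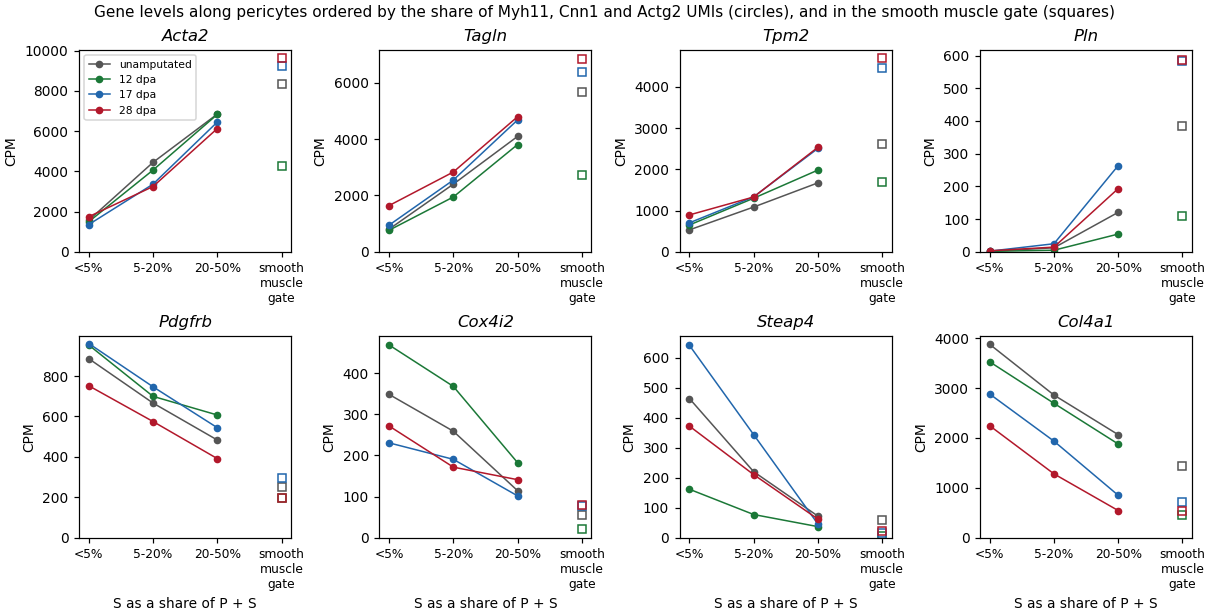
CPM of 8 genes in pericytes binned by the share of Myh11, Cnn1 and Actg2 in the UMIs of the 6 rule genes (circles, lines join 1 library) and in the smooth muscle gate (open squares). Acta2 goes from 1569 to 6844 CPM and Steap4 from 464 to 71.7 CPM across the unamputated bins, and the 4 libraries share these orders.

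In 3 pairs of genes for mitochondrial proteins, the first member took a larger share of the pair's UMIs in pericytes than in the smooth muscle, endothelial and fibroblast gates of the same library. Cox4i2 and Cox4i1 encode alternative forms of subunit 4 of cytochrome oxidase, the last complex of the respiratory chain. Cox4i2 made up 29.1, 27.8, 16.8 and 16.7% of the pair's UMIs in unamputated, 12, 17 and 28 dpa pericytes, against 2.10 to 7.23% in smooth muscle and less than 1% in endothelial and fibroblast gates. Cox4i2 stood at 274, 375, 192 and 206 CPM and Cox4i1 at 669, 974, 950.1 and 1029 CPM, so that Cox4i2 was lower and Cox4i1 higher than in unamputated pericytes at 17 and 28 dpa. Ndufa4l2, the hypoxia-inducible relative of the Ndufa4 subunit, made up 92.0, 92.0, 92.3 and 85.2% of its pair, against 8.07 to 36.4% in smooth muscle, 1.41 to 6.59% in endothelium and 2.53 to 3.36% in fibroblasts. Higd1b, a relative of the hypoxia-inducible Higd1a, made up 83.3, 89.0, 86.5 and 85.7% in pericytes, 18.8 to 60.1% in smooth muscle, 3.49 to 18.0% in endothelium and 0.227 to 0.476% in fibroblasts. The lowest smooth muscle share of each pair was that of 12 dpa, where that gate's fibroblast markers were highest, as given above. Higd1b itself was highest at 12 dpa, with 391, 758, 465 and 605 CPM, a log2 ratio to unamputated of 0.95 at 12 dpa (95% counting interval 0.90 to 1.01) and of 0.63 at 28 dpa. In the list of hypoxia and glycolysis genes, the 23 measured members had medians of -0.09, -0.20 and -0.10 at 12, 17 and 28 dpa.

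**Figure D3:**
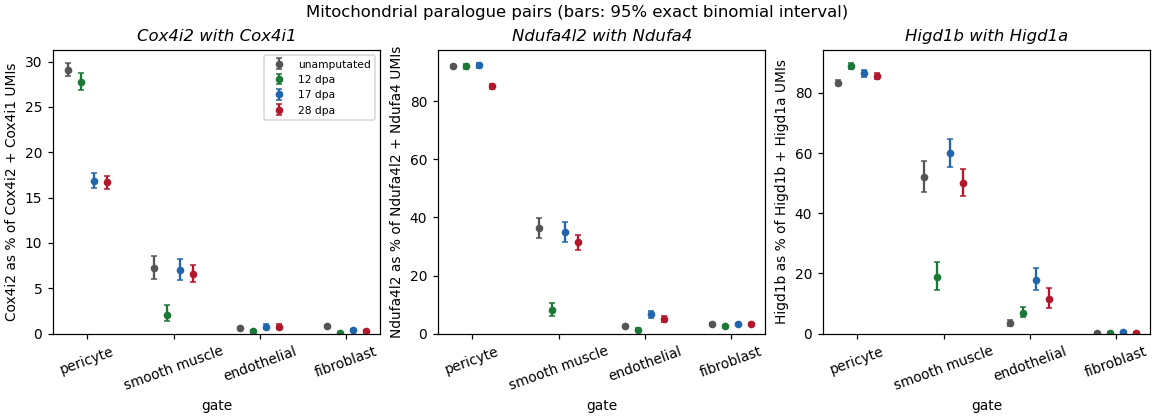
The first gene of each pair as a percentage of the pair's UMIs, in 4 gates (horizontal axis) and 4 libraries (colours), with 95% exact binomial intervals. Pericytes are highest in each panel and library; Cox4i2 is at 29.1% in the unamputated and 16.7% in the 28 dpa pericytes.

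Over the genes with at least 50 CPM in the higher library of a pair, 16 of 4072 were higher by log2 1 at 12 dpa (0.393%) and 47 lower (1.15%). At 17 dpa 16 of 4099 were higher (0.39%) and 29 lower (0.707%), and at 28 dpa 98 of 4169 were higher (2.35%) and 96 lower (2.3%). Under scaling by the median of ratios, the numbers higher and lower were 32 and 32 at 12 dpa, 19 and 27 at 17 dpa and 133 and 44 at 28 dpa. For the gene lists, members with at least 20 CPM in any library were counted, and among all 7544 such genes 0.411, 0.437 and 2.19% were higher by log2 1 at 12, 17 and 28 dpa and 1.31, 0.703 and 2.19% lower. At log2 0.5 the figures were 4.33, 3.27 and 9.38% higher and 11.3, 5.55 and 18.9% lower.

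**Figure D4:**
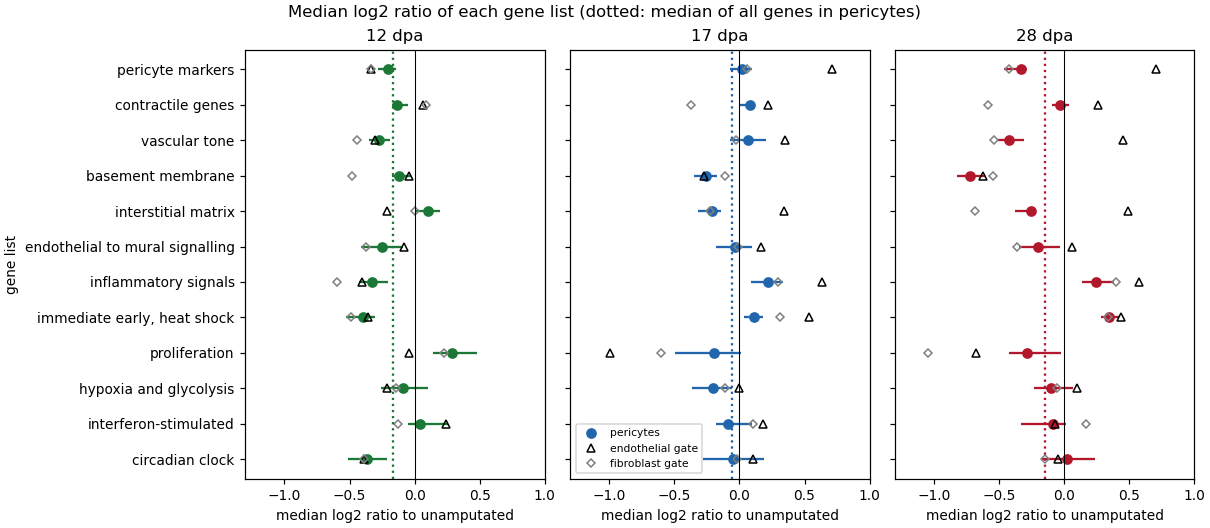
Median log2 ratio of 12 gene lists to the unamputated library at 12, 17 and 28 dpa. Filled marks are pericytes and open marks are the endothelial and fibroblast gates. Bars join the medians of the members' lower and upper 95% counting limits and are no interval of the list median. The dotted line is the median of all genes. In pericytes at 28 dpa basement membrane genes lie lowest, at -0.73, and immediate early genes highest, at 0.34.

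Basement membrane genes were lower at 28 dpa. Of 18 members, 3 were lower by log2 1 and 11 by log2 0.5, 1 was higher by log2 0.5, and the median was -0.73, after -0.12 at 12 dpa and -0.26 at 17 dpa. Col4a1 (chr8:11198423-11312826, minus strand), a chain of the type IV collagen network that is the scaffold of the basement membrane, stood at 3162, 2882, 2142 and 1528 CPM, with log2 ratios of -0.13, -0.56 and -1.05 (interval -1.08 to -1.02). Its partner chain Col4a2 (chr8:11312805-11449287, plus strand), whose gene starts head to head with it, stood at 1873, 1692, 1415 and 1077 CPM. Both chains were thus lower in each later library. Col18a1, the collagen whose end is released as endostatin, stood at 1053, 1035, 708 and 585 CPM. Lama4, the vascular laminin alpha chain, stood at 321, 308, 234 and 161 CPM, Lamc1, the common laminin gamma chain, at 421, 339, 357 and 252 CPM, and Nid1, the nidogen that links laminin to collagen IV, at 286, 265, 251 and 174 CPM. Col15a1, which binds basement membranes to the interstitial matrix, behaved otherwise at 12 dpa: it stood at 184, 286, 82.5 and 73.7 CPM, with log2 ratios of 0.63, -1.15 and -1.31.

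Not every basement membrane gene was lower. Sparc, a collagen-binding matricellular protein gene, stood at 4181, 4195, 4402 and 4589 CPM, the proteoglycan gene Hspg2 (perlecan) at 116, 113, 133 and 129 CPM, and Lamb2 at 193, 165, 269 and 253 CPM, with a log2 ratio of 0.39 at 28 dpa. Lamb1, the alternative laminin beta chain, stood at 99.9, 128, 80.1 and 54.5 CPM. The levels were not particular to pericytes: the list's median at 28 dpa was -0.76 in smooth muscle, -0.62 in the endothelial gate and -0.55 in the fibroblast gate. Gene length moved with the ratios as well. The list's members span a median of 103 kb against 31.2 kb for all genes, and at 28 dpa genes of 200 kb or more had a median of -0.60 in pericytes, those of 50 to 200 kb one of -0.37 and those under 10 kb one of 0.27. With the median of genes of like span taken off, the list's median was -0.36 at 28 dpa and 0.16 at 12 dpa; the part of gene span in the result was not tested further.

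**Figure D5:**
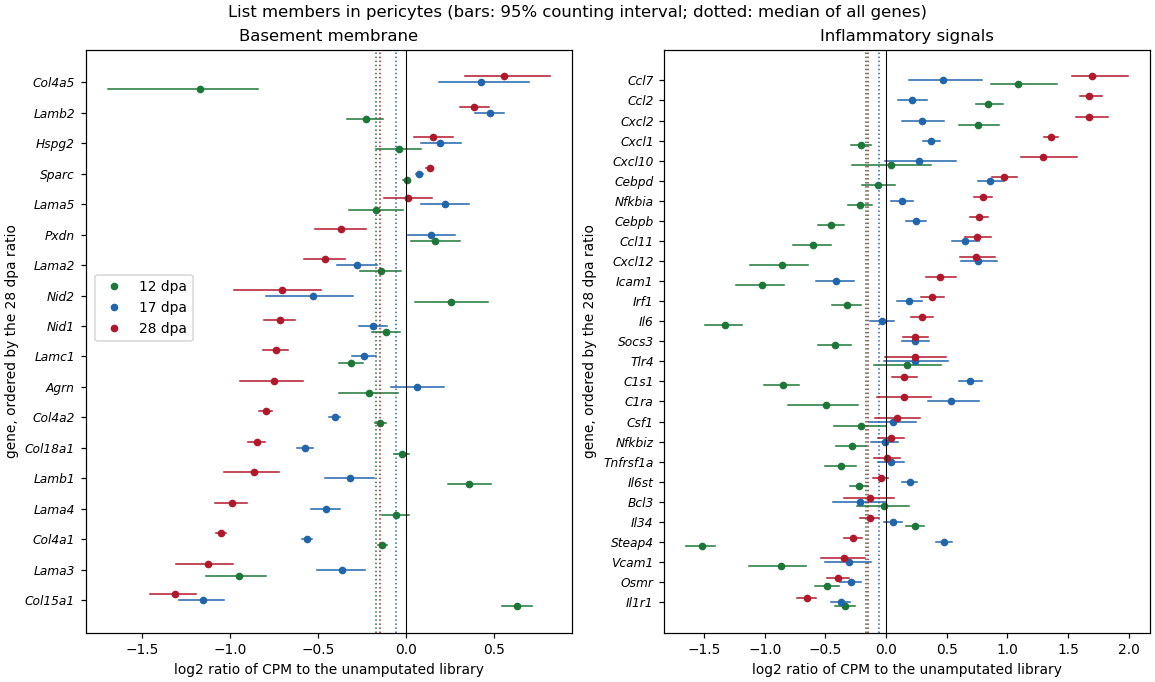
Log2 ratio of CPM in pericytes to the unamputated library for the members of the basement membrane (left) and inflammatory (right) lists at 12, 17 and 28 dpa, with 95% counting intervals; dotted lines mark the median of all genes. Col4a1 reaches -1.05 and Col15a1 -1.31 at 28 dpa on the left, and Ccl2, Ccl7 and Cxcl2 exceed 1.6 at 28 dpa on the right.

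The interstitial matrix, which fibroblasts mainly lay down, was mixed in pericytes. Its 41 members had medians of 0.10, -0.21 and -0.25 at 12, 17 and 28 dpa. Col1a1, the main fibrillar collagen chain, stood at 2362, 3175, 2104 and 1712 CPM and was highest at 12 dpa; at 17 dpa, 5 cells held 30.7% of its UMIs. Postn (periostin) stood at 504, 661, 373 and 269 CPM in the same order. Timp3 (chr10:86300372-86349506), a matrix-bound inhibitor of metalloproteinases, stood at 916, 719, 1564 and 2099 CPM, with log2 ratios of -0.35, 0.77 and 1.2. In other gates the log2 ratio of Timp3 at 28 dpa was 0.23 (smooth muscle), 0.41 (endothelial) and 0.03 (fibroblast). Mmp14, a membrane-bound metalloproteinase gene, stood at 442, 393 and 304 CPM in the unamputated, 12 and 17 dpa libraries, with a log2 ratio of -0.95 at 28 dpa. Eln, the elastin gene, stood at 197, 112, 326 and 275 CPM. At 28 dpa its log2 ratio was 0.48 in pericytes, -1.02 in smooth muscle and -1.25 in fibroblasts. It was -0.12 in the endothelial, -0.22 in the immune and 1.33 in the keratinocyte gate. Eln was among the genes taken for a wide gap to other gates at 28 dpa. Dcn, at 130.4, 75.9, 320 and 537 CPM, and Lum, at 110.5, 76.6, 185 and 305 CPM, are fibroblast markers whose summed level moved in the immune gate too, as given above.

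Contractile genes as a list were close to their unamputated levels. The 23 members had medians of -0.13, 0.08 and -0.04, and at 28 dpa 1 of them was higher by log2 1 and none lower, with 5 higher and 3 lower by log2 0.5. Acta2 stood at 3617, 3532, 3049 and 3185 CPM and Tpm1 at 1595, 1549, 1688 and 1603 CPM. The member higher by log2 1 at 28 dpa was Sncg, encoding gamma-synuclein, at 262, 239, 483 and 562 CPM, a log2 ratio of 1.10. Tagln stood at 1994, 1810, 2245 and 2724 CPM, Tpm2 at 944, 1162, 1268 and 1382 CPM, and Pln at 23.8, 12.3, 53.8 and 43.4 CPM, the 1 member higher by log2 1 at 17 dpa (1.14). Vcl, the vinculin gene of focal adhesions, and Mylk, the myosin light-chain kinase gene, were lower at 28 dpa, at 476 against 787 CPM and at 607 against 873 CPM.

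Several genes that set vascular tone were lower at 28 dpa. Of 27 members, 3 were lower by log2 1 and 12 by log2 0.5, and 2 were higher by log2 0.5; the median was -0.43, after -0.27 and 0.07. Prkg1, the cyclic GMP-dependent kinase that relaxes mural cells downstream of nitric oxide, stood at 2248, 1343, 1728 and 952 CPM, with a log2 ratio of -1.24 at 28 dpa. Pde3a, a phosphodiesterase of cyclic AMP, stood at 1247, 1035, 769 and 579 CPM and Cacna1c, the pore of the L-type calcium channel, at 1120, 920, 943 and 600 CPM. Itpr1, the calcium release channel of the endoplasmic reticulum, stood at 283, 216, 221 and 144 CPM and the endothelin receptor gene Ednra at 627, 545, 524 and 395 CPM. These are long genes, with a list median of 53.4 kb, and with genes of like span taken off the list's median was -0.080 at 12 dpa and -0.18 at 28 dpa. Receptor genes higher at 28 dpa were Ramp1, the partner of the receptor for calcitonin gene-related peptide, at 110.4, 119, 173 and 213 CPM (log2 0.94), and Adra2a (log2 0.27).

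Signals between endothelium and mural cells varied by gene. The 37 members had medians of -0.25, -0.03 and -0.20. Id1, Id2 and Id3, inhibitors of differentiation that are targets of bone morphogenetic protein signalling, were higher together at 28 dpa. Id1 stood at 56.7, 46.8, 101 and 130.3 CPM (log2 1.19), Id2 at 19.6, 6.71, 34.9 and 46.0 CPM (1.19) and Id3 at 555, 586, 830.1 and 1095 CPM (0.98). The same 3 genes were higher in smooth muscle (1.60, 0.80 and 0.76), endothelial (0.48, 0.77 and 0.81) and fibroblast (0.75, 0.55 and 0.48) gates. Heyl, a target of Notch, stood at 120.3, 139, 94.8 and 66.4 CPM. At 12 dpa the lowest members were Pdgfd, a ligand of the platelet-derived growth factor receptor, at 11.8 against 46.8 CPM (log2 -1.90), and Igfbp5, a binding protein of insulin-like growth factor, at 245 against 750 CPM (-1.61). The Igfbp5 ratio at that time was -1.47 in smooth muscle, -1.19 in endothelium, -1.48 in fibroblasts, -1.62 in immune cells and 0.11 in keratinocytes.

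Inflammatory signals were lower at 12 dpa and higher at 28 dpa. Their 27 measured members had medians of -0.32, 0.22 and 0.24 in the order 12, 17 and 28 dpa. At 12 dpa 1 member was higher by log2 1 and 3 were lower; at 28 dpa 5 were higher and none lower. Immune markers in the same pericytes varied too: their sum, given above, was lower than in the unamputated library at 12 and 17 dpa and higher at 28 dpa. The 5 of 12 that reached 20 CPM had medians of -0.69, 0.62 and 1.91, and 2 of the 5 were lower by log2 1 at each time. Their part in the result was not tested. The sequences before the start sites of 4 of them are shown here because the list holds known targets of NF-kappaB, the transcription factor of the inflammatory response. They are the 250 bases upstream of the RefSeq start (GRCm38.p6), in the direction of the gene, with matches on either strand to a motif in capitals: GGGA, then any 2 bases, then TTCC.
Cxcl1, chr5:90890995-90891244, plus strand: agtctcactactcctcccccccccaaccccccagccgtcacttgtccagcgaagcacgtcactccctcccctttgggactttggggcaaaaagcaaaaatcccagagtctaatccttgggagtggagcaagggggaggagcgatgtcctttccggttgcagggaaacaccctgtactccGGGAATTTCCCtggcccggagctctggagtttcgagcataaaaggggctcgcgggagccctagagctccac
Cxcl2, chr5:90903649-90903898, plus strand: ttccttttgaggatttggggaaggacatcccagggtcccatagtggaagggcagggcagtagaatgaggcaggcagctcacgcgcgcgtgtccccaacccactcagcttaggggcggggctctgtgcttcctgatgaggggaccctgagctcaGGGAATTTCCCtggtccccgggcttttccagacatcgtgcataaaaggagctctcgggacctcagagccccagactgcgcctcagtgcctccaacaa
Il6, chr5:30012864-30013113, plus strand: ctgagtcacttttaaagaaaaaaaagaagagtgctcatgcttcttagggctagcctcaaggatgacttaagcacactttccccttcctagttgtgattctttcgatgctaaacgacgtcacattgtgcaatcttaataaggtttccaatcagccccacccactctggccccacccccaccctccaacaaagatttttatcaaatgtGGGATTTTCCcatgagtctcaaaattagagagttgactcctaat
Nfkbia, chr12:55492648-55492897, minus strand: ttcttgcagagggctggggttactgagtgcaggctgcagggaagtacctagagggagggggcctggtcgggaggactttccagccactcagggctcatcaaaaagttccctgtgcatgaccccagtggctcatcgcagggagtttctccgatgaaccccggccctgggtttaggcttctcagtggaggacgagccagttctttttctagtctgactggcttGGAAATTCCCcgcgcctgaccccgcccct
Of 27 genes of the list with a window, 6 held a match (Csf1, Cxcl1, Cxcl10, Cxcl2, Il6 and Nfkbia), while 397 of all 32851 windows did (1.21%), or 1.36% of 27025 genes. In Cxcl1 and Cxcl2 the capitals cover 2 overlapping matches, 1 on each strand. The match lay 71 bases before the start in Cxcl1, 97 in Cxcl2, 44 in Il6 and 29 in Nfkbia. The motif was chosen after the values were seen, and a match is a description of the letters only.

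These 4 genes did not move alike. Cxcl1, a chemoattractant of neutrophils, stood at 280.5, 243, 363 and 719 CPM (log2 at 28 dpa 1.36, interval 1.30 to 1.42). Cxcl2, of the same function, stood at 47.8, 81.4, 59.0 and 155 CPM (1.67). Nfkbia, which encodes the inhibitor that holds NF-kappaB in the cytoplasm, stood at 196, 168, 214 and 341 CPM (0.80). Il6, the interleukin-6 gene, had its widest difference at 12 dpa, with 164, 64.9, 160.1 and 201 CPM (log2 -1.32 at 12 dpa and 0.29 at 28 dpa). The 28 dpa library was thus the highest for all 4, and the 12 dpa library the lowest for Cxcl1, Il6 and Nfkbia.

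Monocyte chemoattractants were also highest at 28 dpa. Ccl2 stood at 99.7, 179.7, 116 and 321 CPM (log2 1.68) and Ccl7 at 15.04, 33.1, 21.2 and 51.0 CPM (1.70). Few cells carried much of this: 5 pericytes held 26.6% of the Ccl2 UMIs and 32.5% of those of Ccl7 at 28 dpa, and 47.6% of those of Cxcl10. Ccl11, by contrast, was spread over many cells, with 5.20% of UMIs in 5 cells, and stood at 101, 66.0, 159 and 171 CPM. After thinning to 3000 UMIs, Ccl11 was seen in 19.4, 13.1, 28.0 and 29.1% of pericytes and in 0.290 to 1.43% of immune gate cells; unthinned, it was seen in 32.9, 21.1, 39.1 and 36.3% and in 0.474 to 2.75%. Cxcl12, a chemokine that holds leukocytes and progenitors, stood at 52.0, 28.3, 88.5 and 87.8 CPM.

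Steap4 was lowest at 12 dpa, with 298, 104, 415 and 247 CPM (log2 -1.52, 0.48 and -0.27), against 58.4, 5.26, 15.3 and 22.1 CPM in smooth muscle. It was seen in 40.2, 20.6, 51.7 and 39.4% of thinned pericytes (56.9, 30.5, 61.8 and 47.5% unthinned) and in 0.436 to 2.08% of thinned immune gate cells (2.19 to 3.91% unthinned). Icam1, the leukocyte adhesion molecule gene, stood at 83.6, 40.8, 62.5 and 114 CPM. The receptor gene Il1r1, by contrast, was lower in each later library, with 324, 256, 249.9 and 206 CPM. The list's median at 28 dpa was 0.57 in the endothelial gate, 0.40 in the fibroblast gate and 0.19 in smooth muscle, so higher levels of these genes were not confined to pericytes.

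Immediate early and heat shock genes followed the same times. The 34 members had a median of -0.40 at 12 dpa, with 2 lower by log2 1 and 14 by log2 0.5, of 0.11 at 17 dpa and of 0.34 at 28 dpa, with 4 higher by log2 1 and 14 by log2 0.5. Fos, the AP-1 subunit, stood at 1025, 533, 1682 and 1983 CPM, Klf4, a Krüppel-like transcription factor gene, at 85.3, 46.2, 132 and 207 CPM, and Gadd45b, a stress-inducible gene, at 229, 245, 318 and 653 CPM (log2 1.51). The heat shock gene Hspa1b was lower in all 3 amputated libraries, with 341, 156, 199 and 251 CPM. At 28 dpa the median was 0.43 in the endothelial, 0.34 in the fibroblast and 0.27 in the smooth muscle gate. Such genes are also induced by tissue dissociation, the members are short (median span 4.31 kb), and with genes of like span taken off the median at 28 dpa was 0.20; the part of handling was not tested.

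A minority of pericytes carried cell cycle transcripts. Mki67, the proliferation antigen gene, stood at 73.6, 85.2, 75.5 and 44.8 CPM, and at 28 dpa 5 cells held 41.2% of its UMIs. A UMI of Mki67 or Top2a, which encodes a topoisomerase of dividing cells, was seen in 7.80, 11.05, 5.47 and 6.02% of thinned pericytes (16.8, 19.7, 7.83 and 8.48% unthinned). The immune gate, whose own cells may divide, gave 13.4, 10.6, 14.8 and 13.3% (23.2, 19.9, 22.6 and 20.7% unthinned); it is no measure of free RNA for these genes, whose part was not tested. The 18 measured proliferation genes had medians of 0.29, -0.20 and -0.28, which became 0.90, 0.24 and -0.099 with doublets removed and 0.12, -0.81 and -0.45 without the 5 cells of most UMIs per gene, so that no direction is given for them.

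Beyond the lists, the genes with the highest log2 ratios were partly not of pericytes alone. At 12 dpa Cdk8, a kinase gene of the Mediator complex, stood at 1910.4 against 392 CPM and Gm42418, which overlaps ribosomal RNA, at 39186 against 14328 CPM; Cdk8, Gm42418, Cmss1, Lars2, Camk1d and Gm15564 were also higher in each of the smooth muscle, endothelial, fibroblast and immune gates. At 17 dpa the highest ratios, of Cst6, Bglap2 and Krt17, rested on few cells, since 5 pericytes held 99.5, 93.2 and 95.8% of their UMIs. Ifitm1 was among the 10 highest too, at 400.3 against 178 CPM (log2 1.16), and was spread over many cells, with 4.93% of UMIs in 5 cells. At 28 dpa Prelp, a proteoglycan gene of basement membranes and connective tissue, stood at 67.4 against 7.82 CPM, Ccn3, a matricellular protein gene, at 135 against 22.6 CPM and Aqp1, a water channel gene, at 151 against 39.5 CPM. All 3 were also higher in the smooth muscle, endothelial, fibroblast and immune gates. At 28 dpa they stood at 72.1, 100 and 855 CPM in the immune gate and at 627, 905 and 1269 CPM in the fibroblast gate. The part of RNA from other cells in the pericyte levels was not tested. Spp1 (osteopontin) stood at 490.5 against 78.1 CPM with 81.2% of UMIs in 5 cells.

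The genes with the lowest log2 ratios were partly lower in other gates too. Adam12, a metalloproteinase and disintegrin gene, stood at 30.1 CPM at 28 dpa against 249.7 CPM in unamputated pericytes, a log2 ratio of -3.01 (interval -3.24 to -2.86), and was also lower in smooth muscle (-2.98), fibroblasts (-2.46) and endothelium (-1.37). Gpc6, a glypican gene, stood at 162 against 501 CPM, Prickle2, a planar polarity gene, at 53.5 against 205 CPM, and Slc8a1, the sodium-calcium exchanger gene, at 77.4 against 246 CPM. At 17 dpa Tmsb10, an actin-sequestering thymosin gene, stood at 235 against 569.7 CPM and Ubb, a polyubiquitin gene, at 454 against 1044 CPM, and both were lower by log2 1 or more in the smooth muscle, endothelial, fibroblast and immune gates. Ccn2, a connective tissue growth factor gene, stood at 161, 103, 58.0 and 83.9 CPM, and its log2 ratio at 17 dpa was -1.45 in pericytes, -1.73 in smooth muscle, 0.09 in endothelium and -0.36 in fibroblasts.

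A few genes differed in time course between pericytes and the other gates. Kctd12, a subunit that tunes GABA-B receptors, stood at 108, 25.1, 199 and 163 CPM in pericytes, against 36.9, 75.5, 62.7 and 44.6 CPM in smooth muscle, 161, 122, 129 and 92.8 CPM in endothelium and 261, 143, 239 and 95.4 CPM in fibroblasts. Its log2 ratio in pericytes and smooth muscle was -2.06 and 1.01 at 12 dpa but 0.88 and 0.75 at 17 dpa. Slc24a3, a sodium, potassium and calcium exchanger gene, stood at 85.7 against 227 CPM at 12 dpa (log2 -1.40), with ratios of -0.35, -0.33 and 0.12 in smooth muscle, endothelium and fibroblasts. Serpine2, a protease inhibitor gene, was level in pericytes at 12 dpa, at 1189 against 1171 CPM, where the smooth muscle, endothelial and fibroblast ratios were -1.21, -0.36 and -1.53. These genes were taken as those with the widest gaps between pericytes and the other gates, so the gaps themselves are a description. At 12 dpa the smooth muscle gate held 80 cells with fibroblast markers at 3657 CPM, as given above. The part of that makeup in the gate's 12 dpa ratios was not tested.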

How the data were processed

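The deposited files were 10x Genomics matrices of whole-number UMI counts per gene and barcode, made by the authors from Chromium 3′ v3 libraries. Cell Ranger 7.1.0 and the mouse build mm10 were named, per the submitters' processing notes. No paper was used, and cell-calling settings were not given in the sources used here. Cell filter and gates were applied to all 4 libraries, UMIs were summed over each gate and library and given as CPM of that gate's UMIs, and log2 ratios were taken after adding 1 CPM. Intervals at 95% were exact (Poisson, binomial or Clopper-Pearson) and cover counting error only. With 1 library a group there was no replicate, test or p-value; the number of animals pooled is not given in the sources used here. Intervals and calls were checked on simulated Poisson counts. Such counts leave out the spread between cells, so the check does not cover it.

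The smooth muscle gate had the same exclusions, at least 4 UMIs of Myh11, Cnn1 and Actg2 and no fewer than of the pericyte genes; no cell fell in more than 1 gate. The keratinocyte gate needed 1% of UMIs from Krt5, Krt14, Krt1 and Krt10. Gene positions are those of GENCODE M21, in which 32158 of 32285 gene IDs were found. The members and lists were chosen with earlier results of these data known. The rule for named genes took, for each amputated library, the 10 genes at either end of the log2 ratios at 50 CPM or more in the higher library, without rule genes, other-class markers, mitochondrial, ribosomal protein, immunoglobulin, hemoglobin and Y-linked genes, Xist and Tsix, and without genes whose CPM was under 0.1 of that in another gate; the 5 widest gaps to other gates in each direction; the 15 genes above every other gate and the 10 above and 10 below smooth muscle; and members of the lists. Some genes that the rule covers are not reported here. Lists count genes of at least 20 CPM in any library. Doublets were kept, and an alternative removed the cells of highest Scrublet score at the rate expected from the number of barcodes (7.05 to 12.8% of cells); Scrublet's own threshold marked 2.52 to 5.33%. The alternatives were other cell filters, thresholds of the rule, thinning to 3000 UMIs, median-of-ratios scaling, CPM minimums and, added after seeing the data, a threshold of 20 UMIs, leaving out the 5 cells of most UMIs per gene, and taking off the median of genes of like span. Software was Python 3.11.15 with numpy 2.4.6, scipy 1.17.1, pandas 2.3.3, scanpy 1.11.5 and matplotlib 3.10.9.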

Additional observations from a re-analysis of the deposited data

Results flagged for a closer look

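Gene lists are given here whose median lay on one side of the unamputated level at one time and on the other side at another, with counting intervals that left out 0 at both times; the differences were not tested. In the order 12, 17 and 28 dpa, interstitial matrix genes had median log2 ratios of 0.10, -0.21 and -0.25, differences from 12 dpa of -0.31 and -0.36; under the stricter cell filter the 12 dpa median was -0.046. Inflammatory genes had medians of -0.32, 0.22 and 0.24, differences of 0.54 and 0.57. Immediate early and heat shock genes had medians of -0.40, 0.11 and 0.34, differences of 0.51 and 0.74. Proliferation genes had medians of 0.29 at 12 dpa and -0.28 at 28 dpa, a difference of -0.57. With doublets removed the proliferation medians were 0.90 and -0.099, and without the 5 cells of most UMIs per gene 0.12 and -0.45. Among the markers, immune genes had medians of -0.69, 0.62 and 1.91 (differences from 12 dpa of 1.32 and 2.60) and keratinocyte genes of -0.18, -0.57 and 1.31, where 28 dpa differed from 12 and 17 dpa by 1.49 and 1.88. Smooth muscle markers outside the rule had medians of -0.14, 0.19 and 0.16, differences from 12 dpa of 0.33 and 0.30, where the median of all genes was -0.17 at 12 dpa. The part of these markers in the other lists was not tested. Each of these comparisons shares the unamputated library, and each but that of keratinocyte genes between 17 and 28 dpa sets the 12 dpa library, whose pericytes carried Xist, against libraries whose pericytes carried Y-linked UMIs.

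Sex-linked transcripts, which no group label concerns, separated the libraries. Pericytes with Xist and no Y-linked UMI made up 59.2% of the 12 dpa pericytes and 0 of the 1412, 1035 and 1462 pericytes of the unamputated, 17 and 28 dpa libraries, for which exact 95% upper limits are 0.261, 0.356 and 0.252%. Pericytes with a Y-linked UMI and no Xist made up 76.3, 46.0 and 32.9% of those 3 libraries and 0 of 735 at 12 dpa (upper limit 0.501%). These limits are on cells with such UMIs, not on cells of either sex. The labels give pooled males and females for each library.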

How the results depend on the processing

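Of 90 gene counts under alternatives, 69 stayed within 1.5 times. The pericyte shares in the unamputated, 12, 17 and 28 dpa libraries were 10.6, 9.31, 10.4 and 10.7% where the pericyte genes had to reach 3 times the smooth muscle genes, and 10.8, 8.72, 10.4 and 9.41% with at least 20 pericyte UMIs. The stricter cell filter gave 8.94, 9.12, 11.7 and 9.72%, doublet removal 12.5% (unamputated), at least 8 UMIs 11.8% (28 dpa), and thinning 12.8, 12.6 and 11.6% (unamputated, 17 and 28 dpa). Over other denominators, pericytes were 18.2, 14.2, 16.8 and 16.2% of cells with no Ptprc, and per 100 endothelial gate cells 88.5, 97.6, 180 and 287. Genes higher by log2 1 at 12, 17 and 28 dpa numbered 10, 10 and 60 at a minimum of 100 CPM and 128, 142 and 517 with none; genes lower numbered 25, 12 and 57, and 342, 215 and 434. The stricter filter gave 31 higher and 117 lower at 12 dpa, 26 higher at 17 dpa and 159 lower at 28 dpa. Doublet removal gave 28 higher at 12 dpa. Median-of-ratios scaling gave 32 higher at 12 dpa and 44 lower at 28 dpa, the like-span median 36 lower at 28 dpa, and leaving out 5 cells per gene 9 higher at 17 dpa. Under median of ratios the basement membrane median was 0.046 at 12 dpa, reversed, and -0.58 at 28 dpa; with like span taken off it was 0.16 (reversed), -0.060 and -0.36 at 12, 17 and 28 dpa. Inflammatory medians under median of ratios were -0.15 and 0.39 at 12 and 28 dpa. Immediate early medians were -0.23 and 0.49 there, 0.19 at 17 dpa at a minimum of 100 CPM and 0.20 at 28 dpa with like span taken off. Reversed too were contractile genes at 12 dpa (0.016 under the stricter filter, 0.036 under median of ratios), interstitial matrix at 12 dpa (-0.046, stricter filter), proliferation at 28 dpa (0.15, minimum of 100 CPM) and clock genes at 12 dpa (0.050, no minimum). Among genes, reversals at 17 dpa were Cst6 (-0.18 at 8 and -0.37 at 20 UMIs), Krt17 (-0.12 without 5 cells), Top2a (0.63, doublets removed), Prickle1 (-0.10, thinned) and Calcrl (-0.063, thinned), and at 28 dpa Krt2 (-0.44, stricter filter). Where construction does not show the cause, it was not tested. The depth of pericytes at 28 dpa, a median of 4345 UMIs, limits what low genes show there. No paired analysis was possible because each group had 1 library.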

Other observations

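Some genes of the circadian clock stood at different levels between libraries, in pericytes and in the other gates. Dbp, a clock output gene, stood at 15.6, 44.8, 35.5 and 91.3 CPM in unamputated, 12, 17 and 28 dpa pericytes, and its log2 ratio at 28 dpa was 2.47 there, 1.84 in smooth muscle, 1.53 in endothelium and 2.75 in fibroblasts. Nr1d1, which encodes a repressor of Arntl, stood at 29.97, 38.8, 37.6 and 76.1 CPM. Arntl, a core activator of the clock, stood at 53.1, 22.1, 34.7 and 23.2 CPM, and Npas2, its binding partner, at 31.2, 6.39, 18.3 and 7.60 CPM. Dbp and Arntl thus stood at opposite extremes in the unamputated library. The hour of collection is not in the labels used here, and its part was not tested.

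Spread between pericytes was measured by the Fano factor, the variance over the mean of UMIs after thinning to 3000. Over 1435 genes the median of the lowest value of the 4 libraries was 1.19. By that lowest value Gm42418 (29.6) and Malat1 (23.9) came first. Mgp, encoding matrix Gla protein, reached at least 15.6 in each library, Acta2 9.42, Tagln 8.66, the rule gene Rgs5 8.50, Cxcl1 7.65 and Ccl2 7.45. The factor was not adjusted for mean level, which in the unamputated library was 34.7 UMIs for Rgs5 and 0.305 for Ccl2. Among the interferon-stimulated genes, Isg15 stood at 22.8, 52.9, 19.0 and 17.7 CPM and Ifitm3 at 1041, 1543, 1332 and 1418 CPM, while the 15 measured members had medians of 0.05, -0.09 and -0.08 at 12, 17 and 28 dpa.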
